A study of Mus musculus with 6 samples.

Results

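Akt1 and Akt2 are serine/threonine kinases that carry the insulin and growth factor signal from phosphoinositide 3-kinase into the cell, and Gsk3a and Gsk3b encode the glycogen synthase kinase 3 (GSK3) enzymes, which they switch off by phosphorylation. These 4 genes were read by 14 probe sets of the array, all those whose platform annotation names exactly 1 of them, out of 45101 probe sets in the table and 18193 genes named by a single symbol. Akt1 had 4 probe sets, Akt2 had 3, Gsk3a had 1 and Gsk3b had 6, and no probe set named a member together with another gene. Gene expression was measured in left ventricles of 3 male Akt2 knockout (akt2-/-) and 3 male wild type samples, all C57BL/6 and 12 to 16 weeks old, with 1 Affymetrix array for each sample. The knockout carries a targeted disruption of Akt2, and the line had been crossed back to C57BL/6 more than 7 times. The labels name neither a promoter nor a tissue to which the disruption is restricted, and do not say which exons it removes or whether tissue of several animals was pooled. Nothing says that the samples of a genotype are separate animals, and every p-value below rests on the spread between samples, whatever its source.

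In resting cells GSK3 is active and phosphorylates glycogen synthase and beta-catenin, which keeps the first inactive and marks the second for destruction. Insulin activates Akt at the plasma membrane, where Pdpk1 and the mTORC2 complex phosphorylate it, and Akt then phosphorylates the N-terminus of both GSK3 enzymes and so inhibits them. In the heart, Akt1 is best known for its part in growth and survival of the myocyte, and Akt2 for insulin-stimulated glucose uptake. This control works on the proteins, whereas the arrays measured transcripts.

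The promoter windows of the Akt genes are shown because Akt2 is the disrupted gene and Akt1 was the other member with probe sets in which every knockout array lay below every wild type array. The sequences are those of RefSeq on GRCm38.p6, 250 bases before to 50 bases after an annotated start, read 5′ to 3′ on the strand of the gene. Capitals mark the GC box GGGCGG, bound by Sp1-type factors, and the forkhead element TGTTTAC, the core that FoxO factors recognise, each searched on both strands. The Akt1 windows lie at chr12:112674835-112675134 and chr12:112674227-112674526 on the minus strand, and the most upstream of 4 Akt2 windows at chr7:27591302-27591601 on the plus strand.
Akt1, upstream start: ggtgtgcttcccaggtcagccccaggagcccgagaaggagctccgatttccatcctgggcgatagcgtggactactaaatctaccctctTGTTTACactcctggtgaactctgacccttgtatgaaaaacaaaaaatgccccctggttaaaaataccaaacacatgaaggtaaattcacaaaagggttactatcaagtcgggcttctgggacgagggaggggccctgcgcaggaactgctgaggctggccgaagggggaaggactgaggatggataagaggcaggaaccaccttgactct
Akt1, downstream start: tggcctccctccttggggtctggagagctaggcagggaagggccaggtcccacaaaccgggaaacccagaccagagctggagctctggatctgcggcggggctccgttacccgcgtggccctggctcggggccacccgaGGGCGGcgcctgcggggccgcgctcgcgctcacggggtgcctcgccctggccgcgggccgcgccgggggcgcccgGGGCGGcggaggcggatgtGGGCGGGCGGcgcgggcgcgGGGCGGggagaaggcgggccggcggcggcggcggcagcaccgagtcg
Akt2, most upstream start: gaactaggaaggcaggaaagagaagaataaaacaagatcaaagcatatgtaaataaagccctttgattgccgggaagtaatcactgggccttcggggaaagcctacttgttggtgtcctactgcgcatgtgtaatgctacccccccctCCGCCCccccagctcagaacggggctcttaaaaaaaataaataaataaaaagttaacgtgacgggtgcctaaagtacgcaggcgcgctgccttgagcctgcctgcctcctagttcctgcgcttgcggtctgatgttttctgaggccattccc
The downstream Akt1 window held 5 GC boxes, a pair of which overlap, and 79.7% of its bases were G or C, against 52.3% in the upstream Akt1 window and 50% in the Akt2 window. A GC box was present in 3 of the 8 windows of the 4 genes and in 35.7% of all 32851 windows. The forkhead element was present in 1 of the 8, the upstream Akt1 window, and in 3.6% of all windows. A match describes these letters only, and no binding was measured here.

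The arrays came in sets that stood apart irrespective of genotype. The replicate 1 arrays had median signals of 134.3 in the knockout and 167.2 in the wild type, against 88.4 to 91.2 in the other 4 arrays, and 18S ribosomal RNA control medians of 57275 and 82330, against 153 to 447. For the 13 tested member probe sets, the genotype difference is therefore also given within the replicate 1 pair (1 array a genotype) and within replicates 2 and 3 (2 arrays a genotype). All 10 ventricular myocyte markers were on the array and bright, with summed signals of 511822 to 767483 in the knockout and 418859 to 1223980 in the wild type. The 4 atrial markers were not absent: their summed signals were 16345 to 19949 in the knockout and 15006 to 16687 in the wild type. Most of each sum was Nppa, at 11646 to 18373 in the knockout and 12804 to 14476 in the wild type. Myl7 had 635.2 to 1861.2 in the knockout and 96.5 to 1246.3 in the wild type, so the sum says little about the other atrial markers.

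Akt2, the disrupted gene, was low in every knockout array in all 3 of its probe sets. The brightest, 1424480_s_at, had signals of 477.8, 394.5 and 255.4 in knockout replicates 1, 2 and 3, against 2362.6, 2561.3 and 2505.4 in the wild type. No knockout array came near a wild type array, and the knockout mean was 15.2% of the wild type mean. Probe set 1421324_a_at had 97.3, 94.5 and 51.4 in the knockout, against 2346.1, 863.9 and 896.5 in the wild type. Here wild type replicate 1 was 2.67 times the mean of wild type replicates 2 and 3, whereas in 1424480_s_at it was 0.933 times their mean, so the probe sets of Akt2 disagree on how that array compares. Probe set 1455703_at had 79.7, 62.9 and 81.7 in the knockout, against 214.4, 195.5 and 151.6 in the wild type. Its knockout mean was 39.9% of the wild type mean, against 5.92% for 1421324_a_at, so the share of signal that remained differed between the probe sets. The knockout signals of these dimmer probe sets, 51.4 to 97.3, were under the array median of 134.3 in replicate 1 and near or under 88.4 and 91.2 in the others. Those of 1424480_s_at, 477.8, 394.5 and 255.4, were above the median of their array in each replicate. Detection calls were not used here, so it is not known which of the remaining signals exceed the background of the array, and which exons each probe set covers is not known here.

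**Figure D1:**
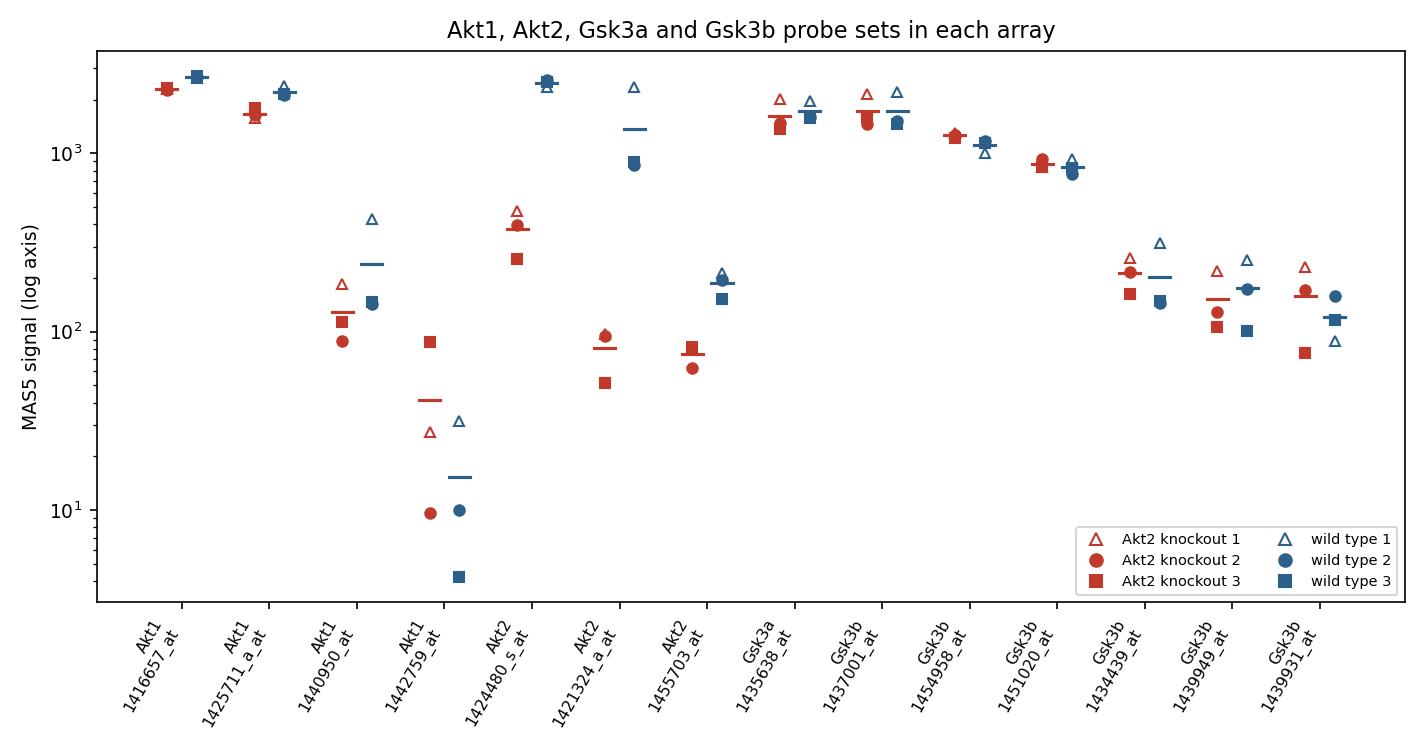
MAS5 signal (log axis) of the 14 probe sets of Akt1, Akt2, Gsk3a and Gsk3b in each array, Akt2 knockout in red and wild type in blue, with horizontal bars at the mean of 3 arrays. The 3 Akt2 probe sets separate the genotypes, with knockout signals of 51.4 to 477.8 against wild type signals of 151.6 to 2561.3, while the Gsk3b probe set 1437001_at is highest in both replicate 1 arrays (open triangles).

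The genotype difference was tested with limma on log2(signal + 21.7), over 22519 probe sets that passed a filter on low signals, p-values being adjusted by Benjamini-Hochberg and judged at 0.05. A fold on this scale understates the change of dim probe sets. Of the 14 member probe sets, 13 passed the filter; the Akt1 probe set 1442759_at did not. The log2 difference of Akt2, knockout minus wild type, was -2.69 (SE 0.249, 95% interval -3.29 to -2.10) for 1424480_s_at, where the replicate 1 pair gave -2.26 and the other replicates -2.91. It was -3.63 (SE 0.427, interval -4.65 to -2.62) for 1421324_a_at, with -4.31 and -3.29 within the sets. For 1455703_at it was -1.11 (SE 0.199, interval -1.58 to -0.63), with -1.22 and -1.05. By unadjusted p these probe sets ranked 2, 3 and 10 among the 22519, but their limma adjusted p were 0.180, 0.549 and 1.00, so none passed. The filter took the mean over both genotypes, and 1421324_a_at and 1455703_at passed it only through their wild type signals. Their ranks, their place among the tested probe sets counted below, and any call of them in another fit therefore depend on the group in which they are high. The background is that 0% of all tested probe sets passed in this fit, while 453 had an unadjusted p under 0.05. Akt2 fell past the threshold in 1 of the 18 other ways of fitting, which had a term for the replicate 1 arrays and a trended, robust variance: the limma adjusted p was 0.00136 for both 1424480_s_at and 1421324_a_at and 0.411 for 1455703_at, where 0.0178% of all probe sets were called lower. In 5 of the 13 tested member probe sets all knockout arrays lay below all wild type arrays, as in 3.66% of all tested probe sets, and 3 of the 5 were those of Akt2.

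**Figure D2:**
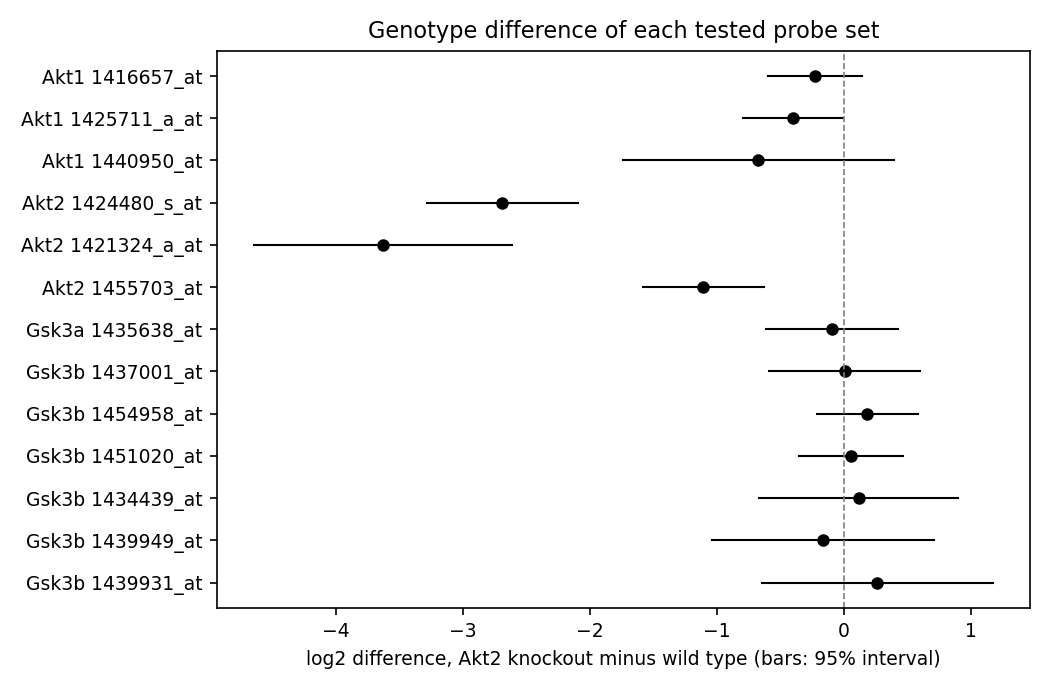
Log2 difference, Akt2 knockout minus wild type, of the 13 tested probe sets (points) with the 95% interval of the limma fit (bars), n = 3 arrays a genotype. The intervals of the 3 Akt2 probe sets and of Akt1 1425711_a_at lie below 0, and those of all Gsk3a and Gsk3b probe sets span 0.

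Akt1, the closest relative of Akt2 among the members, gave lower signals in the knockout in both of its bright probe sets, by much less than Akt2. Its brightest probe set, 1416657_at, had 2287.1, 2255.8 and 2308.1 in the knockout, against 2651.0, 2664.5 and 2717.5 in the wild type. The arrays of a genotype lay close together, the genotypes did not overlap, and the knockout mean was 85.3% of the wild type mean. The log2 difference was -0.23 (SE 0.156, interval -0.60 to 0.14), where the replicate 1 pair gave -0.21 and the other replicates -0.24. Probe set 1425711_a_at had 1574.8, 1647.9 and 1787.6 in the knockout, against 2381.8, 2119.3 and 2138.1 in the wild type. Again no array of one genotype reached the other, and the knockout mean was 75.5% of the wild type mean. Its log2 difference was -0.40 (SE 0.166, interval -0.80 to -0.01), with -0.59 and -0.31 within the sets. In the dimmer 1440950_at, signals were 184.8, 88.6 and 114.0 in the knockout, against 430.3, 143.4 and 146.7 in the wild type. The genotypes overlapped there through knockout replicate 1, although the difference was negative within both sets, at -1.13 and -0.45, and -0.67 (SE 0.449) over all arrays. Without wild type replicate 1, its highest array, the difference was -0.195. Probe set 1442759_at, which was not tested, had 27.5, 9.6 and 87.5 in the knockout, against 31.7, 10 and 4.2 in the wild type, with no order by genotype.

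None of the Akt1 probe sets passed: the limma adjusted p was 1.00 for each of the 3 tested, and between 0.461 and 0.549 in the fit with the replicate 1 term and the trended, robust variance. In limma, 1.13% of all tested probe sets were lower in the knockout with an unadjusted p under 0.05. Among the members these were the 3 of Akt2 and 1425711_a_at, whose unadjusted limma p was 0.0476. The arrays of 1416657_at lay close together, with an SD of 26.3 in signal units around a mean of 2284 in the knockout, and of 35.2 around 2678 in the wild type. Its SE of 0.156 is on the log2 scale and does not rest on that spread alone. In limma the variance of each probe set is drawn towards that of all of them. With a term for the replicate 1 arrays the SE was 0.108.

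Endothelial and macrophage markers were also lower by sign in the knockout, though none passed the test. Of all 11071 tested genes, 5893 were higher and 5178 lower by sign. In all 8 tested endothelial markers the log2 difference was negative (median -0.16; the replicate 1 pair gave -0.18 and the other replicates -0.17), and in 3 of them, Vwf, Tek and Pecam1, the knockout arrays lay below all wild type arrays, as in 3.53% of all tested genes. Their summed signals overlapped, at 11104 to 13390.4 in the knockout and 12127 to 15024 in the wild type. The 8 macrophage and monocyte markers were also all negative (median -0.18, with -0.29 and -0.13 within the sets), with summed signals of 13726 to 26785 in the knockout and 18741 to 27684 in the wild type. Lower signs were not limited to these lists. Of the 10 ventricular myocyte markers 8 were lower (median -0.06), but the replicate 1 pair gave -0.62 and the other replicates 0.17. The 2 tested skeletal muscle markers were lower too. Atrial, smooth muscle and fibroblast markers were mostly higher by sign. All 4 atrial markers were higher (median 0.54, with 0.44 and 0.40 within the sets), with genotypes that overlapped in each. In Myl7, Myl4 and Sln wild type replicate 2 was the lowest array, and wild type replicate 3 lay above knockout replicate 3. Of the 5 tested smooth muscle and pericyte markers 4 were higher (median 0.07, with 0.24 and -0.02 within the sets). So were 6 of the 7 fibroblast markers (median 0.09, with 0.01 and 0.13 within the sets). Among these Col3a1, a fibrillar collagen, had 8715.6, 10189.5 and 9999.4 in the knockout, against 8626.4, 8109.1 and 7340.8 in the wild type, every knockout array lying above every wild type array, as in 3.87% of all tested genes. In tissue made of several cell types, fewer cells of a type and less RNA per cell cannot be told apart, and the part of these markers in the Akt1 values was not tested.

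**Figure D3:**
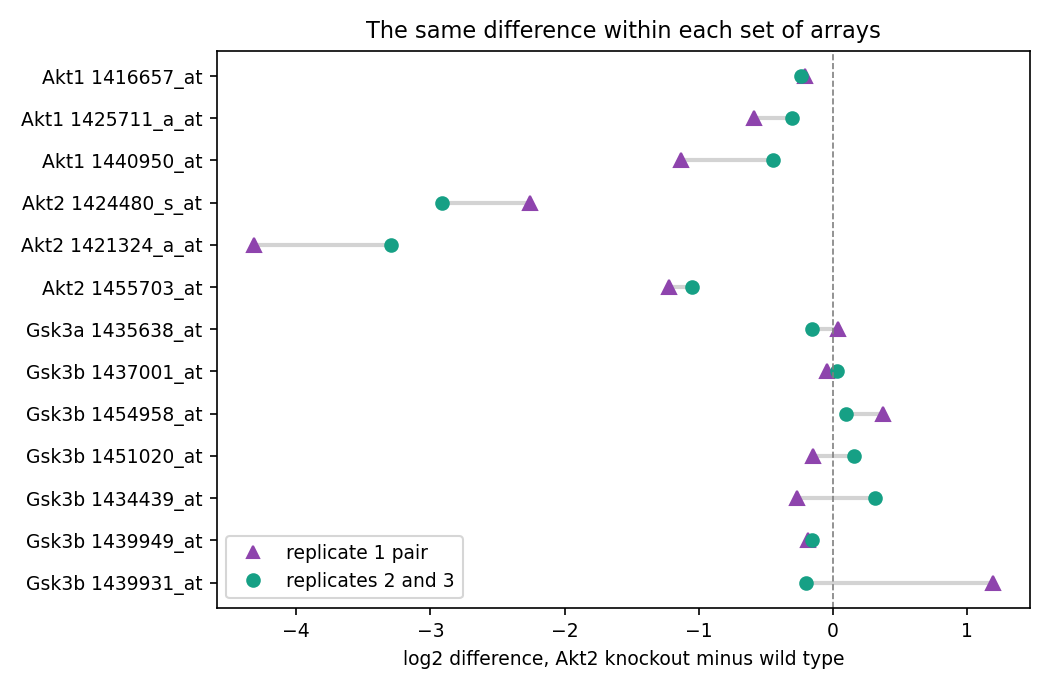
Log2 difference, Akt2 knockout minus wild type, of each tested probe set within the replicate 1 pair (triangles) and within replicates 2 and 3 (circles). All 6 tested Akt1 and Akt2 probe sets lie below 0 in both sets, whereas Gsk3a and 4 of the 6 Gsk3b probe sets take opposite signs.

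Whether Akt2 differed more than Akt1 was asked with the log2 ratio of their brightest probe sets in each array, from which the scale of the array cancels and of which only the difference between genotypes can be read. The ratio was -2.21, -2.45 and -3.07 in the knockout arrays, against -0.16, -0.06 and -0.12 in the wild type arrays. The genotypes were far apart, by -2.46 on the log2 scale, with an SD of 0.445 in the knockout and 0.054 in the wild type. An exact two-sided permutation test gave p = 0.1, the smallest that 3 arrays against 3 allow, and 0.2 after Benjamini-Hochberg adjustment over the 2 ratios tested, so this design could not pass 0.05.

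Gsk3a, which encodes GSK3 alpha, lies on chromosome 7 like Akt2 and was read by 1 probe set, 1435638_at. Its signals were 2026.7, 1474.0 and 1365.7 in the knockout, against 1973.9, 1603.8 and 1570.6 in the wild type. The replicate 1 arrays were the highest of each genotype, and the genotypes overlapped. The replicate 1 mean over both genotypes was 1.33 times that of replicates 2 and 3, while the knockout mean was 94.5% of the wild type mean. The log2 difference was -0.09 (SE 0.219, interval -0.62 to 0.43), where the replicate 1 pair gave 0.04 and the other replicates -0.16.

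Gsk3b, which encodes GSK3 beta, had no probe set that passed. The brightest, 1437001_at, had 2146.3, 1452.0 and 1589.4 in the knockout, against 2212.0, 1517.1 and 1459.6 in the wild type. The means were 1729 ± 368 in the knockout and 1730 ± 419 in the wild type (SD, n = 3 each), and both replicate 1 arrays were the highest of their genotype. The log2 difference was 0.01 (SE 0.249, interval -0.59 to 0.60), with -0.04 and 0.03 within the sets. Probe set 1454958_at had 1304.3, 1261.4 and 1224.2 in the knockout, against 1005.2, 1179.1 and 1147.8 in the wild type. This was the single member probe set in which all knockout arrays lay above all wild type arrays, as in 3.64% of all tested probe sets, and its log2 difference was 0.19 (SE 0.166, interval -0.21 to 0.58). The replicate 1 pair gave 0.37 and the other replicates 0.09, and without wild type replicate 1, the lowest array, the difference was 0.116. In 1451020_at the signals were 838.3, 932.9 and 843.0 in the knockout, against 931.6, 764.4 and 823.5 in the wild type, and the log2 difference was 0.05 (SE 0.172), with -0.15 and 0.16 within the sets.

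In the 3 dim Gsk3b probe sets the genotype means differed by less than the SD of the knockout arrays. For 1434439_at the log2 difference was 0.12 (SE 0.329), where the replicate 1 pair gave -0.27 and the other replicates 0.31. The values for 1439949_at were -0.17 (SE 0.369), -0.19 and -0.15. Those for 1439931_at were 0.26 (SE 0.382), 1.19 and -0.20, so this probe set had its largest difference in the single replicate 1 pair. The limma adjusted p of Gsk3a and of each Gsk3b probe set was 1.00, and between 0.664 and 0.991 in the fit with the replicate 1 term and the trended, robust variance. None of these p-values shows that the transcripts were equal; the intervals give what the arrays allow.

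The log2 ratio of Gsk3a to Gsk3b, by their brightest probe sets, was -0.08, 0.02 and -0.22 in the knockout arrays, against -0.16, 0.08 and 0.10 in the wild type arrays. The genotypes overlapped. The difference of -0.10 had an exact two-sided permutation p of 0.4, and 0.4 after adjustment over the 2 ratios.

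Genes that work with Akt and GSK3 were described by lists, each gene by its brightest probe set. Of 76 listed genes, 75 had a probe set naming them alone and 70 were tested. By sign 37 were higher and 33 lower in the knockout, against 5893 higher and 5178 lower among all 11071 tested genes. The median log2 difference was 0.01, against 0.01 over all tested genes. None had an unadjusted limma p under 0.05, as 1.76% of all tested genes had. All knockout arrays lay above all wild type arrays in 1 of the 70 genes, against 3.87% of all tested genes, and below them in 0, against 3.53%. For none of these genes was the limma adjusted p under 0.05.

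Of the 8 kinases and complex members that activate Akt, 4 were higher and 4 lower by sign, with a median of 0.00. Rictor, the defining subunit of mTORC2, had 383.7 ± 22.9 in the knockout and 323.9 ± 56.4 in the wild type (SD, n = 3 each), which is 0.24 (SE 0.192) on the log2 scale, with 0.58 and 0.07 within the sets. Mlst8, a subunit of both mTOR complexes, had -0.09 (SE 0.184), and Mtor, their kinase, 0.14 (SE 0.344). In each of the 3 the genotypes overlapped.

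The 16 tested phosphatases and inhibitors that oppose Akt had a median of 0.03, with 10 higher and 6 lower. Trib3, a pseudokinase that binds Akt and is induced by stress, had 186.9 ± 16.8 in the knockout and 256.1 ± 53.1 in the wild type, which is -0.40 (SE 0.210) on the log2 scale. Inpp4a, a phosphoinositide phosphatase, had -0.23 (SE 0.205), and Ppp2r2a, a regulatory subunit of protein phosphatase 2A, 0.28 (SE 0.248). In each of the 3 the genotypes overlapped.

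The list of Akt substrates had 18 tested genes, 6 higher and 12 lower, with a median of -0.07. It also held Rheb, a GTPase downstream of the substrate Tsc2 and not itself a direct Akt substrate. Casp9, an apoptotic protease, had a log2 difference of 0.41 (SE 0.288), where the replicate 1 pair gave -0.29 and the other replicates 0.76. Foxo4, a forkhead factor that Akt keeps out of the nucleus, had -0.26 (SE 0.278), and Acly, which makes acetyl-CoA from citrate, -0.14 (SE 0.186). Akt controls its substrates by phosphorylation, which the arrays do not read.

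The 10 tested GSK3 partners and members of the beta-catenin destruction complex had a median of -0.02, with 3 higher and 7 lower; Frat1, Frat2, Dvl2 and Dvl3 were under the filter. Gskip, which binds GSK3 beta, had -0.24 (SE 0.20). Axin2, a scaffold of the complex and a target of beta-catenin, had -0.29 (SE 0.326), and Apc, its partner scaffold, 0.16 (SE 0.205). The replicate 1 pair gave -0.01 for Axin2 and 0.53 for Apc, and the other replicates -0.43 and -0.02.

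The 19 tested GSK3 substrates had a median of 0.10, with 14 higher and 5 lower. Gys1, muscle glycogen synthase and the classical GSK3 substrate, had 1752.3, 1485.7 and 1761.7 in the knockout, against 1812.1, 1021.3 and 781.8 in the wild type. Its log2 difference was 0.54 (SE 0.317), where the replicate 1 pair gave -0.05 and the other replicates 0.84, so the difference was in replicates 2 and 3. Gata4, a cardiac transcription factor, had 2303.5, 2000.4 and 1978.1 in the knockout, against 1909.4, 1690.1 and 1441.1 in the wild type, a difference of 0.32 (SE 0.187) in log2. It was the 1 listed gene whose genotypes did not overlap. Jun, an AP-1 factor, had 0.24 (SE 0.219).

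**Figure D4:**
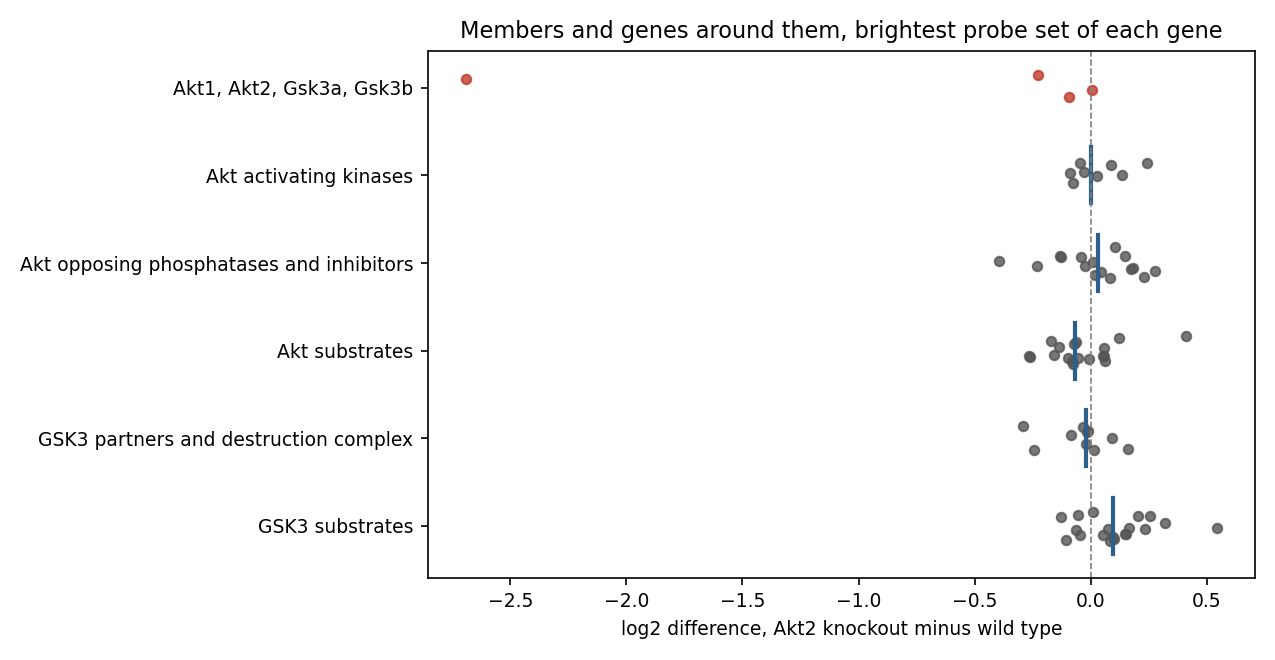
Log2 difference, Akt2 knockout minus wild type, of the 4 members (red) and of the tested genes of each list (grey), each by its brightest probe set, with list medians as blue bars; points are spread vertically for legibility only. Akt2 lies at -2.69, and every listed gene lies between -0.40 and 0.54.

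The genes whose signals ran most like a member over the 6 arrays were taken from 11070 other tested genes by the Pearson correlation of log2 values, as a description only, since the arrays fall into clusters by genotype or by replicate set. For Akt1 they were Jak1, Lad1 and Trpv2, at 0.99, 0.99 and 0.98, and for Akt2 they were Lad1, Gab2 and Arid3a, at 0.99, 0.98 and 0.97. Lad1 was on both lists, with 220.2, 184.4 and 193.1 in the knockout, against 357.3, 370.9 and 377.9 in the wild type. Jak1, a cytokine receptor kinase, had 4122.1, 4314.2 and 4347.9 in the knockout, against 6263.8, 6066.4 and 6503.6 in the wild type, and Gab2, a docking protein upstream of phosphoinositide 3-kinase, had 718.8, 759.9 and 681.3 in the knockout, against 921.0, 919.6 and 971.7 in the wild type. In all 5 of these genes the knockout arrays lay below the wild type arrays, as in 3.53% of all tested genes. The choice favours this, since the brightest Akt1 and Akt2 probe sets themselves separate the genotypes. After the mean of each replicate set was subtracted the correlations were 0.98 to 0.99, from the same arrays and the same genotype difference, so they are no separate evidence. For Gsk3a the genes were Lmbr1l, Als2cl and Ppp1r15a (each above 0.99), and for Gsk3b they were Zfp871, Prss55 and Aldh1b1 (each above 0.99). Their signals were highest in the replicate 1 arrays of both genotypes, and with the set means subtracted the correlations were 0.95 to 0.99 for Gsk3a and 0.81 to 0.95 for Gsk3b.

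Akt2 and Gsk3a lie on the same chromosome, with 59 protein-coding RefSeq genes between them, of which 27 were tested. Their median log2 difference was -0.02; 2 of the 27 were above the wild type in every knockout array, Blvrb and Ccdc97, and 0 were below, against 3.87% above and 3.53% below among all tested genes. Blvrb, biliverdin reductase B, is separated from Akt2 by 7 genes and had 1868.4, 1655.7 and 1586.6 in the knockout, against 807.5, 834.8 and 777.9 in the wild type (log2 difference 1.06, SE 0.166, limma adjusted p = 1.00). Ccdc97, with 39 genes in between, had a log2 difference of 0.22 (SE 0.161). Among the 10 tested genes on each side of Akt2, Blvrb and, on the far side, Fbl (-0.26, SE 0.174) were the 2 whose genotypes did not overlap, 1 above and 1 below, against the same 3.87% and 3.53%, and the median of the 20 was 0.00. These neighbours were looked at after the member values were known. Whether DNA of another strain remains around the disrupted gene in these mice was not tested.

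**Figure D5:**
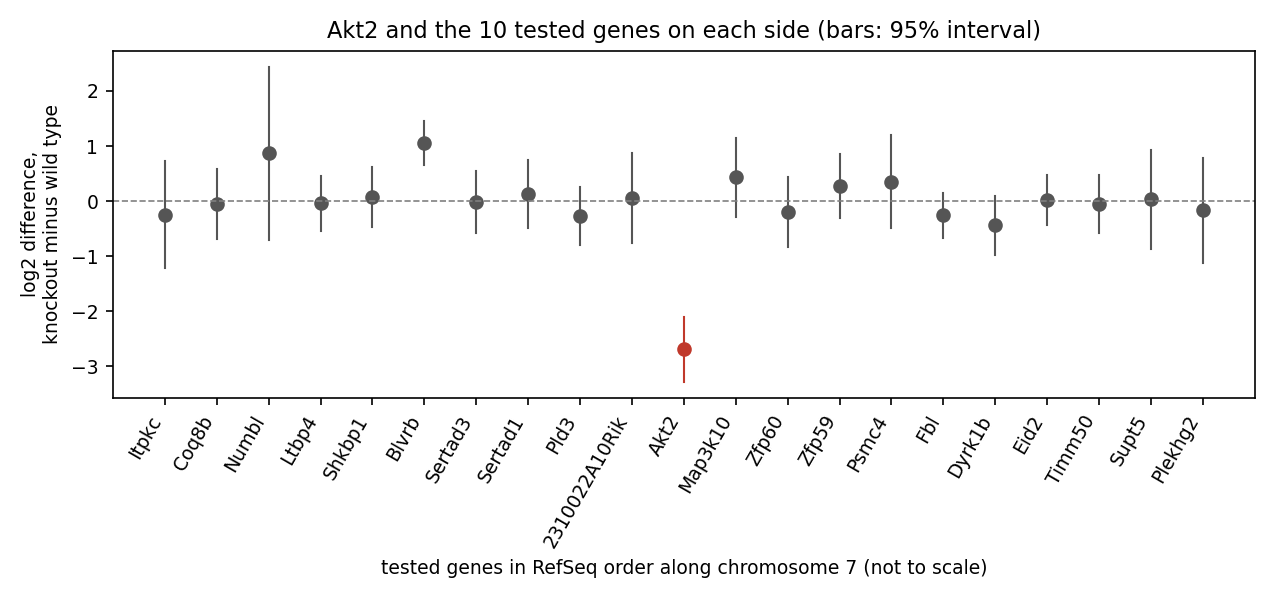
Log2 difference, Akt2 knockout minus wild type, of Akt2 (red) and of the 10 tested genes on each side of it (grey), in RefSeq order along chromosome 7 and not to scale, with 95% intervals of the limma fit as bars. Apart from Akt2 at -2.69, Blvrb at 1.06 is the gene whose interval lies off 0.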

How the data were processed

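Left ventricle RNA of 3 Akt2 knockout and 3 wild type samples was labelled with biotin and hybridised to 1 array each. The deposited table gives an intensity on a linear scale for 45101 probe sets on every array, computed by the authors with MAS5, per the submitters' processing notes. Its version and settings are not known here. The mean without the extreme 2% at each end was 500.0 on every array, so each array had been scaled by 1 factor, which leaves differences in the shape of the distribution. Depth has no meaning for arrays, and their number limits the precision.

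The 64 control probe sets were left out. Signals were taken as log2(signal + 21.7); the pseudocount is the 20th percentile of the table without controls. The 22519 probe sets at or above the median mean log2 value, 6.87, were tested with limma 3.58.1 under R 4.3.3, by lmFit with genotype alone and eBayes, with Benjamini-Hochberg adjustment over all of them. The script was tested on simulated data. Names came from the platform annotation: 34945 probe sets had 1 symbol, 932 several and 9160 are unnamed here. Ratios of members were compared with exact permutation tests, two-sided.

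The members and lists were chosen with earlier results of these data known, and so were the promoter motifs and chromosome neighbours. Every member probe set was named, the 3 genes most like each member, and of each list the 3 genes with the lowest unadjusted p. Markers are named where their genotypes do not overlap. The atrial markers, whose genotypes overlap, are named as well. All 4 members matched the RefSeq table of GRCm38.p6. No build is named for the array, so for the neighbours only chromosome and gene order were taken from that table. The promoter windows and their coordinates are of the same build.

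Both genotypes carry the sample numbers 1 to 3 in the labels. Deviations from the genotype mean, taken over tested probe sets, correlated at 0.61, 0.45 and 0.39 between arrays of the same number. Each pair thus met the criterion of 0.1. Unlike numbers 2 and 3 gave 0.36 and 0.44, so this result rests on replicate 1 standing apart. It does not show that numbers 2 and 3 pair samples. Alternatives were other pseudocounts (1 and 50), filters, scalings and variance estimates, the replicate number as a block, a term for the replicate 1 arrays (batch block), replicates 2 and 3 alone, 1 probe set a gene, and leaving out each array in turn.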

Additional observations from a re-analysis of the deposited data

How the results depend on the processing

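The differences of the 6 tested Akt2 and Akt1 probe sets kept their negative direction in every alternative that tested them, at -2.91 to -2.45 for Akt2 1424480_s_at and -0.24 to -0.12 for Akt1 1416657_at. Akt1 1440950_at lay between -0.926 and -0.195, and -0.195 was the value without wild type replicate 1. Akt1 1442759_at, fitted only without the filter on low signals, was 0.65 (SE 0.517). Over these, the limma adjusted p of Akt2 1424480_s_at lay between 0.00136 and 1. It passed with the batch block and the trended, robust variance, at -2.69. Probe set 1421324_a_at passed there too, at -3.63, but was among the tested probe sets only through its wild type signals. That fit called 13 probe sets in all. The batch block alone called 1, which was not a member, and the fit without a block 0 (453 at an unadjusted limma p under 0.05). With the replicate block the differences were those without it, -2.69 for Akt2 1424480_s_at (limma adjusted p = 0.343). In that fit 0 probe sets passed and 1267 had an unadjusted limma p under 0.05, so pairing by number changed no call. The Akt2 to Akt1 ratio difference of -2.46, paired by number, had an exact permutation p of 0.25, the smallest 3 pairs allow.

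Small differences changed sign. Scaling the arrays to the same median moved the median of all probe sets to 0.11, and Gsk3a to 0.010, below that shift. Leaving out each array in turn gave Gsk3a -0.263 to 0.018, positive without knockout replicate 3 and without wild type replicate 1, and Gsk3b 1437001_at -0.159 to 0.194, negative without knockout replicate 1 and without wild type replicate 2 or 3. Gsk3b 1437001_at was -0.015 under quantile normalization. Of the other Gsk3b probe sets, those fits gave 0.116 to 0.229 for 1454958_at, -0.0090 to 0.130 for 1451020_at, -0.060 to 0.450 for 1434439_at, -0.472 to 0.111 for 1439949_at and -0.025 to 0.654 for 1439931_at, which was -0.199 in replicates 2 and 3 alone. The cause was not tested. With an array left out, the genotypes no longer hold equal numbers of replicate 1 arrays.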
